A study of Mus musculus with 4 samples.

Results

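The 38 members described here are Hox genes of the 4 mouse clusters (HoxA, HoxB, HoxC and HoxD), taken by name from 39087 RefSeq genes. CpG methylation of the clusters was read in the hippocampus at 5164 of 2226271 CpG sites, and 17 of 9731 called CpG sites of the frontal cortex name a member. The animals were female wild-type offspring of CD-1 mice, an outbred stock, with an age of 8 weeks in the labels. The study gives an older age for its brain expression samples, and which age holds for these libraries is not settled in the sources used here. Mothers of the E3 group had received estriol (E3), an estrogen of pregnancy, at 0.46 mg/ml in DMSO from an osmotic pump for 7 days from gestation day 9. Mothers of the control group (CT) had received the DMSO vehicle from the same kind of pump. Each tissue had 1 E3 library and 1 CT library, and whether a library holds 1 mouse or several is not given in the sources used here. All tests below therefore compare 2 libraries and not the conditions, and no value has a replicate check.

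Hox genes code for transcription factors with a homeodomain, and the order of the genes along a cluster follows the order in which they are used along the body axis. Paralog groups 1 to 4 act in the hindbrain and neck, groups 5 to 8 in the trunk, and groups 9 to 13 in the lumbar and tail regions and the limbs. In forebrain the clusters are known to be kept silent by Polycomb proteins, with CpG-rich DNA that carries little methylation.

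DNA methylation was measured with Methyl-MiniSeq, which cuts DNA with TaqαI and MspI and reads bisulfite-treated fragments, so that only cytosines near these sites are seen. In the clusters 20.2% of the 25520 CpG cytosines of both strands had at least 5 reads in both libraries. The median depth per Hox site was 28 reads in E3 and 10 reads in CT, against 27 and 9 reads over all CpG sites. Intervals in parentheses are 95% Wilson intervals and cover at most counting error, since reads of a PCR library are not independent molecules. Where sites are pooled, a read counts at each site it covers, so that these intervals are too narrow. Depth, library preparation and exposure differ together between the 2 libraries and cannot be told apart. In bulk tissue a change in the mix of cell types and a change within cells cannot be told apart either. Of the cell type markers, no promoter or gene body of the 6 neuronal genes was called, while the gene bodies of Sox10 and Mog, 2 of 4 tested oligodendrocyte genes, were called higher in E3. Gfap, the astrocyte filament gene, had a promoter called higher in E3, 1 of 4 tested astrocyte genes. Among microglia and blood genes, the promoter of P2ry12 was called higher and that of Cx3cr1 lower, of 3 tested, and the gene body of Ptprc was called higher, of 5 tested. The 3 endothelial genes had no call in the 1 promoter and 3 gene bodies tested. Over all genes 9.65% of promoters were called, and of gene bodies 8.63% were called higher and 7.33% lower. Whether any of these short marker lists differs from that background, or from another list, was not tested. The part of cell composition in the Hox values was not tested.

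Stretches of 4 members with runs of called CpGs in the hippocampus are printed first, from the plus strand of the RefSeq GRCm38.p6 assembly (mm10), with capitals on the CpGs called lower in E3. The Hoxc6 stretch, chr15:103000629-103000713, lies in a promoter and intron of this thoracic gene, and 6 of its 9 CpGs are marked.
Hoxc6: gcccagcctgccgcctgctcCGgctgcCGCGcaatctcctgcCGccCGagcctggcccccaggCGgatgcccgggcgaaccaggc
The Hoxb8 stretch, chr11:96281674-96281751, lies in a promoter and intron of a gene whose loss in mice causes excessive grooming, and 2 of its 6 CpGs are marked.
Hoxb8: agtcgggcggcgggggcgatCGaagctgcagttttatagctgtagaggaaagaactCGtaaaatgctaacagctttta
The Hoxa6 stretch, chr6:52208703-52208869, lies upstream of the start of Hoxa6, a trunk gene on the minus strand, and 6 of its 21 CpGs are marked.
Hoxa6: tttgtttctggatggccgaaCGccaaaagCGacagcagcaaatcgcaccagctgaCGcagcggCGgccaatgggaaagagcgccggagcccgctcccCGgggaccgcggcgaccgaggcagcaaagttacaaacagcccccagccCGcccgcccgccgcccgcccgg
The Hoxb5 stretch, chr11:96304982-96305054, lies in the coding exon and within the homeobox of this gene for shoulder position, and 4 of its 10 CpGs are marked.
Hoxb5: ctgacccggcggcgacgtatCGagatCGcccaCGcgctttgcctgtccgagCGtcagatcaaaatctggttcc

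The Hoxc6 stretch had 12 measured sites, 7 called lower, and a level of 1.75% (0.681 to 4.40) in E3 and 46.1% (38.4 to 54.0) in CT. It was thus nearly free of methylation in the E3 library and partly methylated in the CT library. In the Hoxc6 stretch each of the 5 plus strand sites had 8 reads in E3 and 20 reads in CT, the equal numbers that sites within the same reads have, and these sites are not independent of each other. On the minus strand the Hoxc6 level was 2.12% in E3 and 22.2% in CT.

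The Hoxb8 stretch was at 12.3% in E3 and 42.2% in CT, with only 3 sites measured. The Hoxa6 stretch was at 4.43% in E3 and 19.7% in CT over 28 sites, 6 of them called lower. In both the E3 library was the lower one. The Hoxb5 stretch was at 5.37% in E3 and 26.1% in CT over 12 sites, with the plus strand at 5.81% and 34.6% and the minus strand at 4.29% and 12.2%. The marked CpGs were chosen by these calls, so the levels of the stretches describe the calls and are not a further test.

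**Figure D1:**
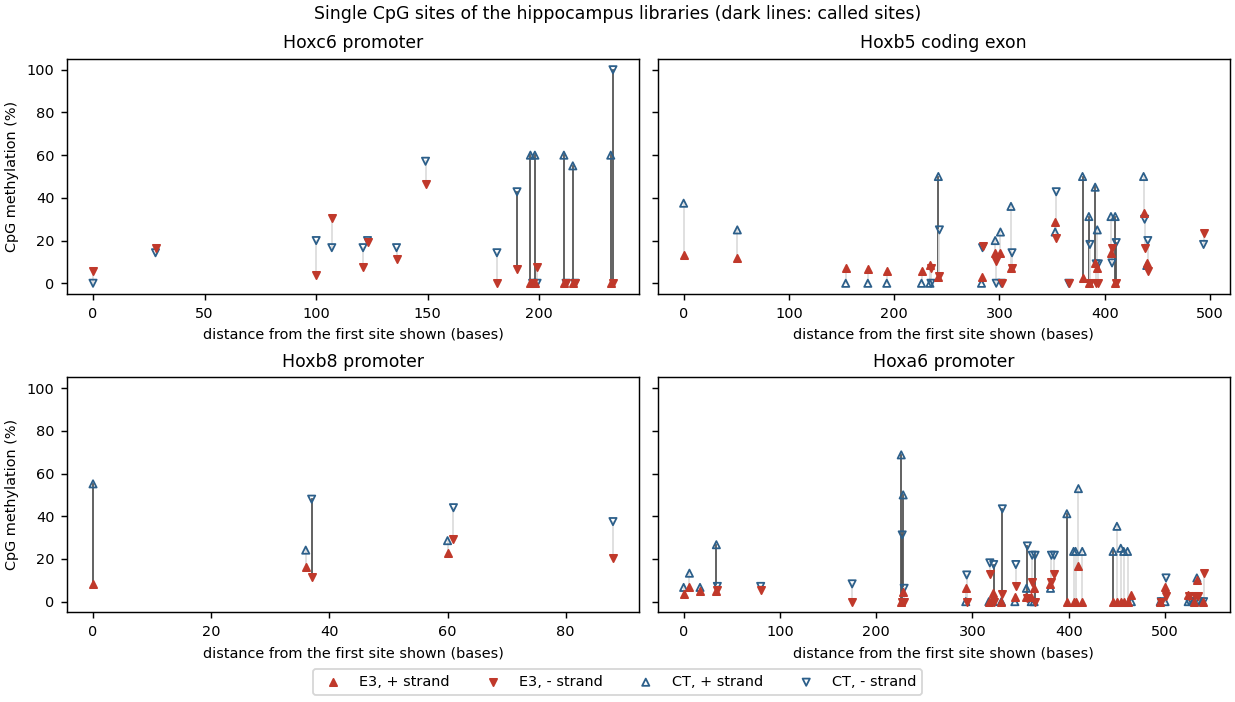
Methylation (%, vertical axis) of each measured CpG site in and around the printed stretches of Hoxc6, Hoxb5, Hoxb8 and Hoxa6 in the hippocampus against distance in bases from the first site shown, with E3 filled, CT open, plus strand sites as upward and minus strand sites as downward triangles, and a dark line joining the 2 libraries at called sites. In the Hoxc6 stretch the E3 sites lie near the bottom, with the CT sites above them at 7 called sites of 12.

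The 4 clusters were low in methylation in both libraries. Over all reads of the 4 clusters the level was 6.68% (6.57 to 6.81) in E3 and 7.83% (7.63 to 8.04) in CT, against 51.6% in E3 and 49.1% in CT over all CpG sites. As a mean over sites, which weighs each site alike, the level was 6.41% in E3 and 7.77% in CT in the clusters, against 50.8% and 50.9% over all CpG sites. A level under 10% was found at 78.1% of Hox sites in E3 and 78.5% in CT. HoxC differed most, with 6.02% (5.75 to 6.29) in E3 and 9.26% (8.77 to 9.77) in CT, a difference of -3.24 points (-3.82 to -2.68). HoxA was at 6.69% in E3 and 7.24% in CT, HoxB at 7.79% and 8.31%, and HoxD at 6.05% and 7.02%. These other 3 clusters each differed by less than 1 point, and with at least 10 reads per site the HoxD difference was -0.0324 instead of -0.969 points. Sites over 50% numbered 79 in E3 and 219 in CT.

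Sites called at single CpGs were mostly lower in E3. A call asked that the libraries lie 10 points or more apart with a 2-sided Fisher's exact p under 0.05. By this rule 429 Hox sites (8.31%) were called, against a background of 11.0% of all CpG sites. Of these, 363 sites (7.03%) were lower and 66 sites (1.28%) higher in E3, against backgrounds of 4.83% and 6.18%. HoxA had 101 lower and 23 higher sites, HoxB 89 and 19, HoxC 82 and 7, and HoxD 91 and 17. With p-values adjusted over all CpG sites, 139 Hox sites were lower and 7 higher, 146 in all or 2.83% against a background of 3.35%. In each of the 4 clusters the lower sites outnumbered the higher ones.

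Cytosines outside CpGs, compared with the same rule, were also called lower more often than higher, and what this split and the unequal depth add to the CpG calls was not tested. In the clusters 2.17% of 6542 CHG sites were called lower and 0.306% higher, against 3.17% and 0.254% of all CHG sites. CHH sites of the clusters were called lower at 2.40% and higher at 0.313% of 16942, against 3.36% and 0.319% of all CHH sites. The non-CpG levels themselves were 1.46% in E3 and 1.56% in CT for CHG and 1.52% and 1.78% for CHH in the clusters. Thinned to 10 reads per site in both libraries, 62 Hox CpG sites (2.24%) were called lower and 5 (0.181%) higher of 2765, against 2.04% and 2.68% of all CpG sites. With at least 20 reads in both libraries, 93 Hox sites (11.3%) were lower and 36 (4.37%) higher of 823, against 9.21% and 9.15% of all such CpG sites. Among sites with a mean level of 30 to 70% over both libraries, 55.3% of 226 Hox sites were called lower and 3.10% higher, against 14.1% and 24.6% of all CpG sites in that class. At 10 to 30%, 24.6% of 829 Hox sites were lower and 5.19% higher, against 13.0% and 15.2%. At 5 to 10%, 4.12% of 776 Hox sites were lower and 1.80% higher, against 2.93% and 1.41%. Over 70%, 3.92% of 51 Hox sites were called in each direction, against 4.18% lower and 3.80% higher. These classes use the same values as the calls and are a description.

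At the 363 lower sites the median level was 0% in E3 and 45.5% in CT, with a median of 34 reads in E3 and 13 reads in CT. The E3 library had no methylated read at 182 of them (50.1%). At the 66 higher sites the median level was 25% in E3 and 0% in CT, with 53 sites at 0% in CT. These levels belong to sites chosen by their difference and are given as a description. All 4 counts of a site (methylated and total, in both libraries) were even at 32.5% of Hox sites and 26.0% of all sites, and what made them even was not tested. With such counts halved, 304 Hox sites (5.89%) were called lower and 37 (0.716%) higher, against 3.99% and 5.4% of all CpG sites.

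Promoters of the 38 members, taken as 1000 bases on each side of every annotated start, all had at least 5 measured sites. The promoters of Hoxc4, Hoxb8, Hoxc6, Hoxb3 and Hoxa6 were called lower in E3, 5 of 38 (13.2%), and 0 were called higher. The call asked for at least 10 points and a Fisher's exact p under 0.05 after Benjamini-Hochberg adjustment over 19941 promoters, and the sums count a read at each site it covers, so that the p-values are too small and serve as a threshold only. The background was 9.65% of promoters called, 5.03% lower and 4.61% higher, and 1.45% and 1.53% among promoters with a mean level under 20%. The median difference was -0.669 points over the members and 0.282 points over all promoters, and 24 members were lower and 14 higher in E3. By cluster the called promoters were 1 of 10 in HoxA, 2 of 10 in HoxB, 2 of 9 in HoxC and 0 of 9 in HoxD.

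Hoxc4, which acts in neck and upper trunk, had the widest gap, at 5.74% (4.76 to 6.92) in E3 and 26.4% (24.1 to 28.7) in CT over 50 sites, a difference of -20.6 points (adjusted p = 8.24e-58, Fisher's exact test). Both strands showed it, with 6.44% in E3 and 23.8% in CT on the plus strand and 5.15% and 29.0% on the minus strand. Single sites called lower numbered 23 of the 50, and none was called higher. Hoxb8 was at 9.95% (8.02 to 12.3) in E3 and 26.3% (22.1 to 30.9) in CT over 27 sites, a difference of -16.3 points. Hoxc6 was at 7.71% (6.28 to 9.42) in E3 and 22.4% (19.3 to 25.8) in CT over 53 sites, a difference of -14.6 points. In each of these genes the intervals of the 2 libraries did not overlap, but they count a read at each site it covers and are too narrow.

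Hoxb3, a hindbrain gene with 9 annotated starts, was at 11.9% (10.3 to 13.7) in E3 and 25.5% (21.7 to 29.7) in CT over 47 sites, a difference of -13.6 points. The values of Hoxb3 and Hoxb8 turned on the window, since within 500 bases of a start they differed by -26.6 and -23.5 points, and from 2000 bases before to 500 after a start by -6.69 and -8.66 points, under the limit of 10. Hoxa6 was at 7.07% (6.16 to 8.11) in E3 and 17.5% (15.4 to 19.8) in CT over 69 sites, a difference of -10.4 points. Its call was at the edge of the rule: the minus strand alone was at 6.12% in E3 and 15.4% in CT, under 10 points, and the mean over sites gave -9.48 points. The calls of Hoxc4, Hoxc6 and Hoxa6 were kept under every choice of promoter window tried.

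The other 33 promoters differed by -4.38 to 8.67 points and were not called. Hoxd4, a hindbrain and neck gene, was nearest on the higher side, at 17.3% in E3 and 8.59% in CT over 8 sites, with an adjusted p = 0.0648 by Fisher's exact test. Hoxa7, a trunk gene, was at 11.0% in E3 and 5.07% in CT over 18 sites. Within 500 bases of its start it was called higher. Hoxa9, a gene of the lumbar region and of blood stem cells, was at 5.56% in E3 and 0.493% in CT over 12 sites. On the lower side Hoxa2, needed for the second pharyngeal arch, was at 3.65% in E3 and 8.04% in CT, and Hoxb6, a trunk gene, at 2.74% and 6.97%. Hoxa2 was called lower within 500 bases of its start, and Hoxb6 with at least 10 reads per site. In 31 members the promoter stayed under 10% in both libraries.

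By position along the body axis, 2 of 11 promoters of paralog groups 1 to 4 were called, 3 of 11 of groups 5 to 8, and 0 of 16 of groups 9 to 13. The promoters of groups 9 to 13 differed by -2.13 to 5.06 points, with a median of -0.366. Those of groups 1 to 4 had a median of -1.28 and those of groups 5 to 8 of -0.809 points. Whether the groups differ from each other was not tested. Hoxd10 and Hoxd11 share part of their promoter sites. Single promoter sites called lower were found in 33 members and called higher in 12, while 5 members had no called promoter site. Members had 8 to 163 promoter sites each, and the share of all genes with such a site was not computed. Of 2398 promoter sites of the members 6.84% were lower and 0.751% higher, against 3.84% and 1.71% of promoter sites of all genes.

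**Figure D2:**
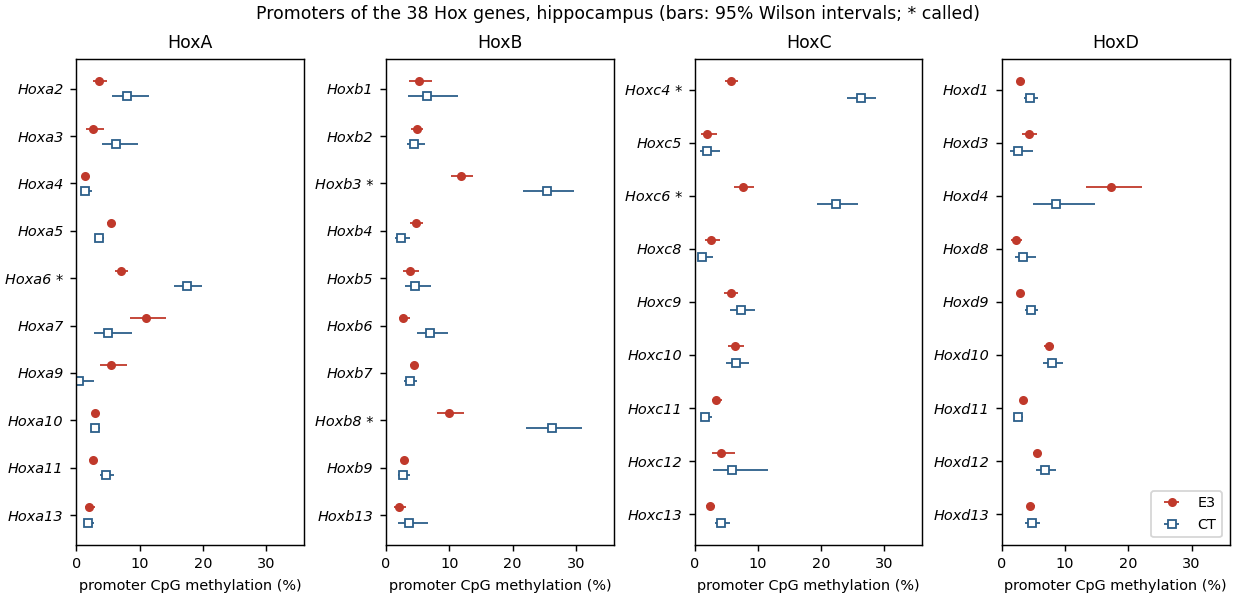
Promoter CpG methylation (%, reads pooled over sites) of the 38 members in the hippocampus, a panel per cluster, with E3 filled and CT open, bars for 95% Wilson intervals and an asterisk on called promoters. The 5 called promoters have E3 between 5.74 and 11.9% and CT between 17.5 and 26.4%, while 31 promoters lie under 10% in both libraries.

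Gene bodies were tested in 31 members, and 3 were called lower in E3 and 0 higher, against backgrounds of 7.33% and 8.63% of 20748 gene bodies. Hox gene bodies were low, with a median of 6.08% in E3 and 7.77% in CT, where all gene bodies had medians of 78.2% and 77.9%. Hoxa11, needed for the forearm bones and the uterus, was at 3.70% (1.89 to 7.14) in E3 and 16.5% (10.1 to 25.8) in CT over 10 sites. Hoxb5 was at 9.74% (8.22 to 11.5) in E3 and 21.7% (18.5 to 25.2) in CT over 40 sites. Hoxc5, a gene of neck and upper trunk, was at 9.61% (7.64 to 12) in E3 and 21.3% (17.0 to 26.4) in CT over 23 sites. Only in Hoxb5 was the gap seen on both strands (10.3% in E3 and 24.9% in CT on plus, 8.55% and 15.5% on minus). In Hoxc5 the plus strand was at 11.4% in E3 and 11.0% in CT and the minus strand at 8.14% and 31.7%, and in Hoxa11 the plus strand was at 1.24% and 3.03% and the minus strand at 5.19% and 25%. The mean over sites took Hoxb5 to -9.07 points, under the limit. The other tested bodies differed by -9.92 to 2.79 points.

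The clusters were also read in fixed windows of 1000 bases, to cover the DNA between genes. Of 224 windows with at least 5 sites, 20 (8.93%) were called lower and 3 (1.34%) higher in E3, against backgrounds of 8.71% and 9.51% of windows. The share called lower was thus near background, and the share called higher was under it. Among windows with a mean level under 30%, 19 of 216 (8.80%) were lower and 2 (0.926%) higher, against 4.05% and 6.53%. HoxC had 8 lower windows of 51 and none higher, HoxB 6 lower and 3 higher of 70, HoxD 4 lower of 48 and HoxA 2 lower of 55. In 143 of the 224 windows both libraries were under 10%.

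The widest fall was in a HoxB window that holds a Hoxb3 promoter and part of a Hoxb5 exon, at 28.9% (24.2 to 34.0) in E3 and 65.5% (56.2 to 73.7) in CT over 11 sites. The Hoxc6 window chr15:103000001-103001000 was at 9.86% (7.41 to 13) in E3 and 39.5% (33.1 to 46.3) in CT. A Hoxc4 promoter and exon window was at 4.09% (3.17 to 5.24) in E3 and 28.1% (25.5 to 30.8) in CT over 32 sites, the most sites of the 6 widest falls. The other 3 were an intergenic window nearest Hoxc12, chr15:102942001-102943000, at 1.67% in E3 and 25.7% in CT and read on the plus strand only, the Hoxb8 window chr11:96281001-96282000 at 17.6% and 39.4%, and the Hoxb5 window chr11:96305001-96306000 at 10.2% and 26.8%. The 10 sites of the window nearest Hoxc12 summed to only 60 reads in E3 and 70 reads in CT, with a read counted at each site it covers. None of its single sites was called. Antisense transcripts such as Hoxb5os run through some of these windows, and the data do not say which gene a site belongs to.

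All 3 windows called higher were in HoxB. The one nearest Hoxb1, chr11:96375001-96376000, was at 46.3% (41.6 to 51.1) in E3 and 26.1% (19.4 to 34.2) in CT. A window in a Hoxb3 intron, chr11:96310001-96311000, was at 16.2% in E3 and 4.17% in CT, and one at the Hoxb4 promoter, chr11:96319001-96320000, at 11.0% in E3 and 0% in CT. The 0% in CT rests on 62 reads summed over 9 sites, with a read counted at each site it covers. They would allow up to 4.84% if independent, so the true limit is higher. The stretch nearest Hoxb1, chr11:96375499-96375571, is printed because it held the widest rise. Both of its CpGs are in capitals, the first called higher on both strands and the second on the plus strand only.
Hoxb1 side: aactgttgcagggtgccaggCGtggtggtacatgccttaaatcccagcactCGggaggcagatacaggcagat
Its level was 51.6% in E3 and 25.2% in CT over 4 sites, 3 of them called higher. At the second CpG the plus strand was at 44.4% in E3 and 7.41% in CT. The minus strand of that CpG went the other way, at 50% in E3 and 57.7% in CT. Repeats were not annotated here.

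**Figure D3:**
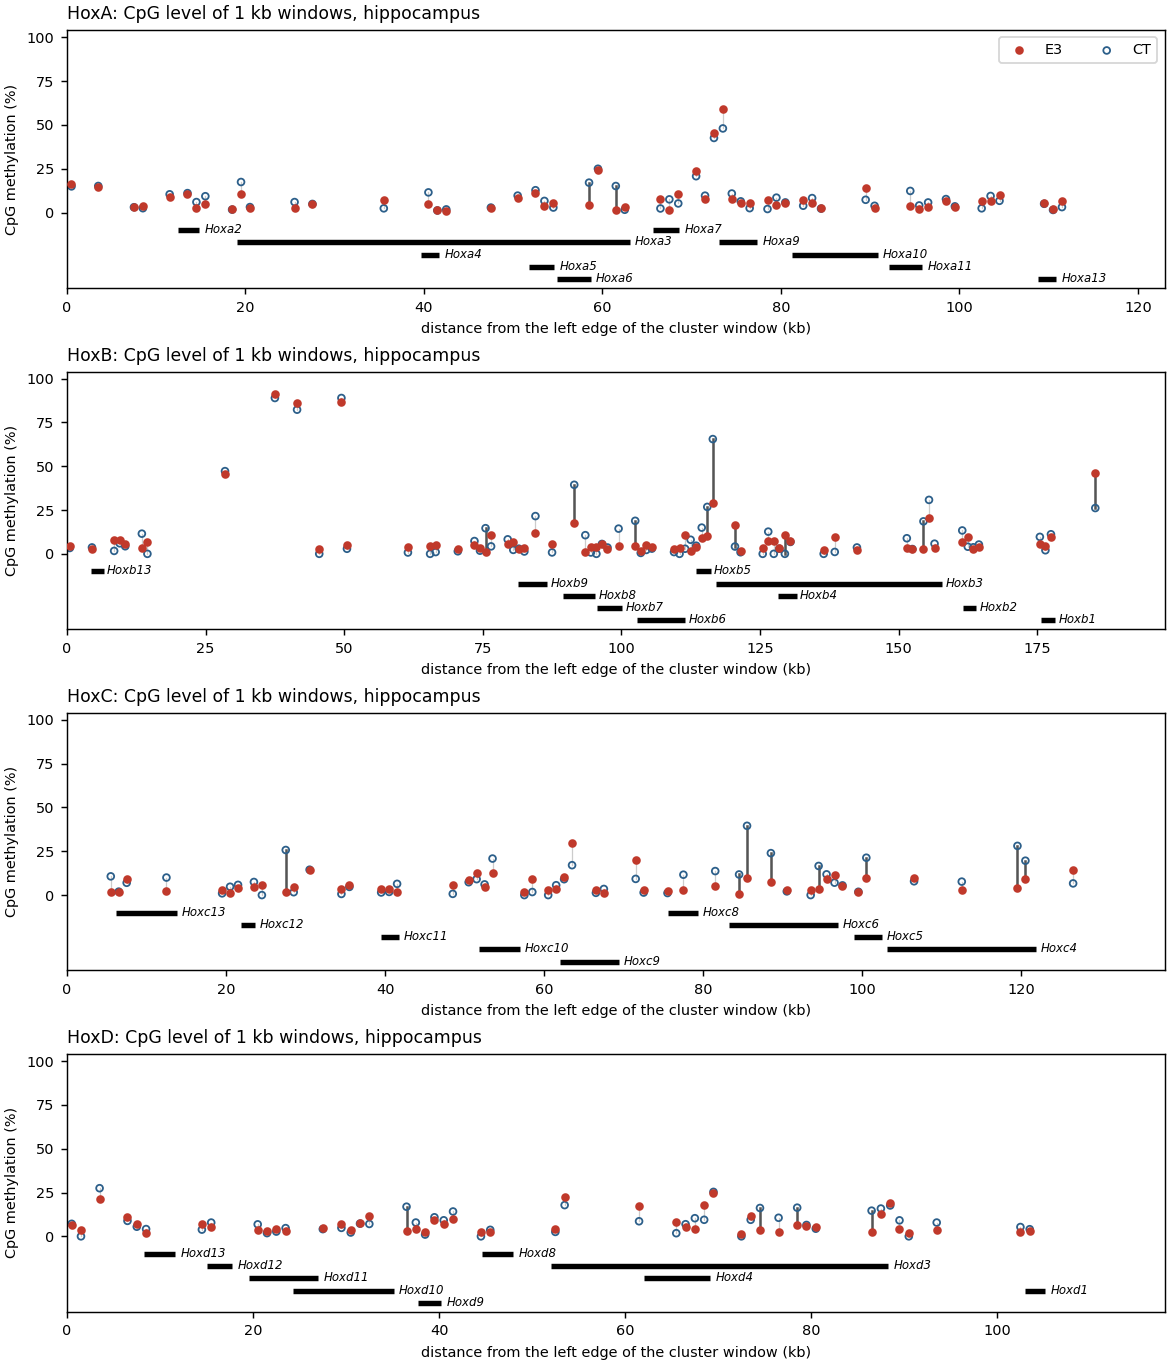
Methylation (%, reads pooled over sites) of 1000-base windows along HoxA, HoxB, HoxC and HoxD in the hippocampus against distance in kb from the left edge of the cluster window, with E3 filled, CT open, a dark line at called windows and black bars for the genes. Most windows lie under 10% in both libraries (143 of 224), and 20 of the 23 called windows have E3 under CT.

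The cytosines of a CpG on the plus and the minus strand are read from separate DNA strands, and their calls were compared within the library pair. Of 1478 Hox CpGs read on both strands, 24 were called lower on both, 2 higher on both and 1 in opposite directions, while 232 were called on 1 strand only. The backgrounds were 0.816% lower and 0.914% higher on both strands of 503685 CpGs. In all, 1.76% of these Hox CpGs were called in the same direction on both strands, near the 1.73% of all CpGs. Over all these CpGs 4108 were lower on both, 4605 higher on both, 4531 in opposite directions and 85693 called on 1 strand only. Opposite calls were thus about as many there as lower or as higher calls on both strands. Of the 24 lower CpGs, 7 lay in Hoxc4. They are not independent of each other. CpGs at chr15 positions 103034782 and 103034793 had the same numbers of reads on each strand in both libraries, as sites within the same reads have. The same held for positions 103034684 and 103034692.

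With strands summed, a wide fall was at a Hoxc6 CpG at chr15 position 103000692 (0 of 34 reads in E3, which allows a level of up to 8.82%, and 71.4% of 28 reads in CT). A CpG in an exon of Hoxd3, a gene of the first neck vertebra, at chr2 position 74746486 was at 2.70% of 74 reads in E3 and 60.7% of 56 reads in CT. Its window, chr2:74746001-74747000, was at 2.32% in E3 and 3.31% in CT on the plus strand and at 3.21% and 36.1% on the minus strand. Thus the Hoxd3 exon differed at this CpG on both strands, and around it mostly on the minus strand. A second Hoxc6 CpG, in an exon at chr15 position 103003080, was at 4.26% of 94 reads in E3 and 61.9% of 21 reads in CT. A CpG of Hoxb2, a hindbrain gene, at chr11 position 96353141 was at 3.70% of 81 reads in E3 and 59.1% of 22 reads in CT. A Hoxa6 CpG at chr6 position 52208628 had 0 methylated of 66 reads in E3, which allows up to 4.55%, and 50.0% of 64 reads in CT. The 2 rises were in the stretch nearest Hoxb1 at chr11 position 96375519 (55.4% of 166 reads in E3, 18.5% of 54 in CT) and at the promoter of Hoxa5, a gene of lung development, at chr6 position 52204209 (32.3% of 62 reads in E3, 0 of 32 reads in CT, which allows up to 9.38%).

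In the frontal cortex the deposited table lists called CpG sites only, with the methylated fraction of each library and no read counts, so depth is unknown and no test could be run. The table has 17 sites that name 12 members, and 15 of the sites (88.2%) were lower in E3. The share of all genes named by a listed site was not computed, so whether 12 members are many or few is not known. Of all 9731 listed sites 63.7% were lower, and 72.7% among those with a mean level under 20%, where all 17 sites lie. Listed CHG and CHH sites were lower at 79.5% and 75.3%. The median level of the 17 sites was 4.11% in E3 and 22.9% in CT.

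In HoxA, the Hoxa2 exon site was at 3.45% in E3 and 35.0% in CT, and the intron site of Hoxa3, a gene of thymus and parathyroid, at 12.1% and 26.5%. Hoxa11 had 2 sites, at 7.38% in E3 and 24.3% in CT and at 2.22% and 22.2%. All 4 HoxA sites were lower. In HoxB, Hoxb1, which patterns a hindbrain segment, had 2 lower sites, at 0% in E3 and 30.0% in CT and at 4.12% and 16.3%. Hoxb13, a gene of the tail region, was at 4.11% in E3 and 16.7% in CT, and Hoxb9, a thoracic gene, at 4.42% and 17.2%. The exon site of Hoxb5 was higher, at 16.3% in E3 and 6.14% in CT.

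In HoxC all 3 sites were in the Hoxc5 exon. They were at 0% in E3 and 26.7% in CT (chr15 position 103015261), at 2.78% and 25% (chr15 position 103015263), and at 36.4% and 0% (chr15 position 103015986), the last being the second higher site. Close to this last site, a listed CHH site at chr15 position 103016002 was at 45.5% in E3 and 0% in CT. Without read counts, whether the CpG and the CHH site were seen in the same reads is not known. The first pair lies 2 bases apart in the homeobox, within chr15:103015241-103015284, and is in capitals here to show how close they are.
Hoxc5: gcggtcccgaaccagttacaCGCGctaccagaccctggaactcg
HoxD had 5 lower sites. The promoter site of Hoxd13, a digit gene, was at 2.33% in E3 and 31.0% in CT, and that of Hoxd10, a gene of lumbar motor neurons, at 2.53% and 18.6%. Sites in introns of Hoxd3 were at 4.71% in E3 and 22.9% in CT (chr2 position 74727822, also in a Hoxd4 intron) and at 0% and 20% (chr2 position 74734676). A site in a Hoxd3 exon was at 8.70% in E3 and 25.9% in CT.

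The hippocampus measured 10 of the 17 sites, and 3 of them were called there, 2 in the same direction as in the frontal cortex. Over all hippocampal CpGs with strands summed, 5.36% were called lower and 6.73% higher. How often the other listed frontal cortex sites were called in the hippocampus was not computed, so agreement between the tissues was not tested. With strands summed, the Hoxd3/Hoxd4 site at chr2 position 74727822 had 0 methylated of 25 hippocampal reads in E3, which allows up to 12%, and 68.8% of 16 reads in CT. Its strands differed in CT, with 0% of 5 reads on the plus strand, where E3 was at 0% too, and 100% of 11 reads on the minus strand, so that the call rests on the minus strand alone. The Hoxd3 site at chr2 position 74734676 was at 16.1% of 31 reads in E3 and 82.4% of 17 reads in CT and was read on the plus strand only. These 2 CpGs, each called on 1 strand in the hippocampus, were listed or called lower in both tissues and lie in Hoxd3 introns, within chr2:74727802-74727843 and chr2:74734656-74734697, printed with the shared CpG in capitals.
Hoxd3/Hoxd4: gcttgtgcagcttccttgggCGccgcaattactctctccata
Hoxd3: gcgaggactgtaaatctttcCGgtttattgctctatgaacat
The Hoxb5 site was called in the other direction, at 7.14% of 28 reads in E3 and 31.3% of 32 reads in CT, with p = 0.0253 by Fisher's exact test, and neither strand was called on its own. Over the 10 sites the hippocampal difference was negative at 4, positive at 5 and zero at 1, and ranged from -68.8 to 16 points. Calls at the other 7 sites were not made there, as the hippocampus did not cover them at 5 reads in both libraries.

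**Figure D4:**
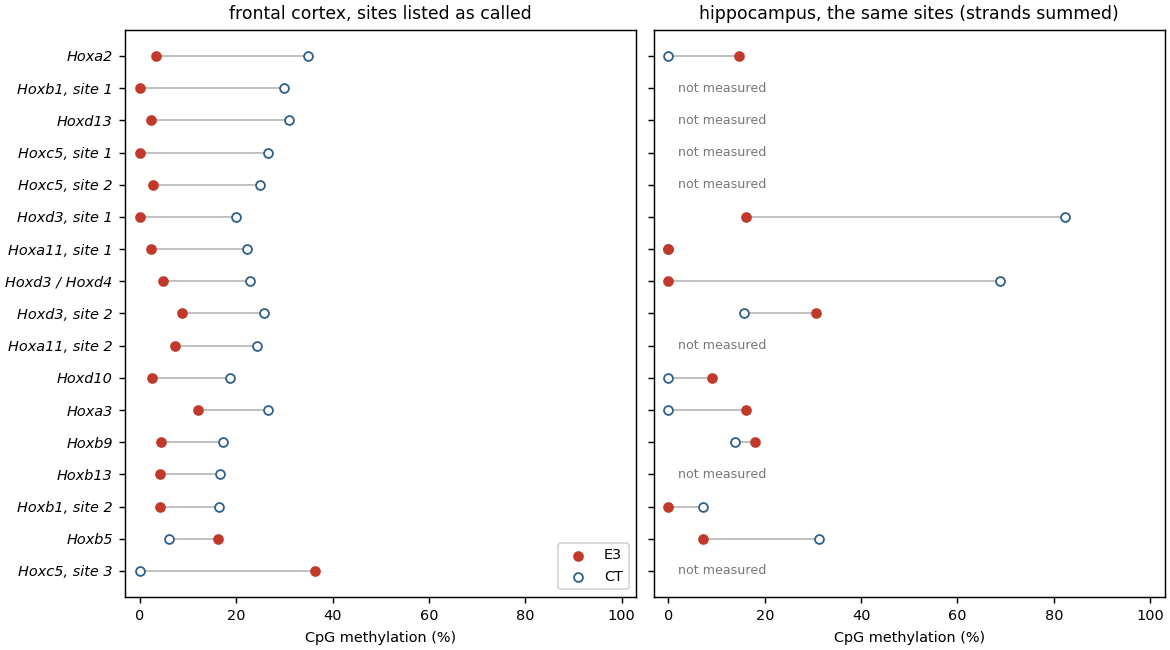
Methylation (%) in E3 (filled) and CT (open) of the 17 listed frontal cortex CpG sites that name a Hox member, on the left, and of the same CpGs in the hippocampus with strands summed, on the right. On the left 15 of 17 sites have E3 under CT, and on the right 10 sites were measured, of which the 2 Hoxd3 intron sites reach 68.8 and 82.4% in CT.

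Genes that act with Hox proteins or set their expression were read for comparison. Of 33 listed (Pbx, Meis, Pknox and Cdx factors, retinoic acid receptors and enzymes, Polycomb and Trithorax subunits and others), 32 promoters were tested, with 1 lower and 0 higher (3.12% called, against 9.65% of all promoters) and a median difference of 0.184 points. Their median level was low, at 2.90% in E3 and 2.82% in CT. Among all promoters with a mean level under 20% the backgrounds were 1.45% lower and 1.53% higher, so these calls were near background. The lower one was Meis2, a cofactor of Hox proteins that is also used in the forebrain, at 5.51% in E3 and 16.9% in CT over 172 sites. Of their 32 tested gene bodies 3 were lower (Ezh2, Rara and Cdx4) and 2 higher (Rnf2 and Bmi1), 15.6% called against 16% of all gene bodies. Of 47 other homeobox and paired-box genes, 1 promoter was lower (Six3, a forebrain gene, 4.39% in E3 and 15.2% in CT) and 1 higher (Pax8, 63.5% and 45.8%), 4.26% called against 9.65% of all promoters, and the median was -0.476 points. Promoters of this list were low too, with median levels of 3.34% in E3 and 3.29% in CT. Of 46 tested gene bodies of that list, Msx1 was lower and Pax8 higher, 4.35% called against 16% of all gene bodies. Their median level was 9.72% in E3 and 11.0% in CT, against 78.2% and 77.9% over all gene bodies.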

How the data were processed

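DNA methylation was analysed in 4 libraries, 1 per tissue and group, and groups were taken from the sample labels. By the study's methods, reads were aligned to mm10 with Bismark 0.19.0 and cytosines called with MethylDackel 0.4.0, after FastQC 0.11.8 and TrimGalore 0.6.4. The hippocampal tables, as deposited, hold per cytosine a total read count and a methylated fraction for each library. Their product, rounded, was taken as the number of methylated reads, which is inexact above 100 reads (1.18% of CpG sites in E3, 0.184% in CT). The deposited frontal cortex table holds the methylated fraction at called sites only. Both tables also hold the authors' own differences and p-values, and the frontal cortex table adjusted ones, and these columns were not used. No column belonged to an unknown sample.

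Cluster windows reached 4.12 to 12.4 kb beyond the first and last member. Sites needed at least 5 reads in both libraries. Sites, promoters, gene bodies and 1000-base windows were tested over the whole table with Fisher's exact test (numba 0.67.0, numpy 2.4.6, pandas 2.3.3 and scipy 1.17.1 in Python 3.11.15) and the scripts were tested on simulated data. Sequences were read with pysam 0.24.0, and figures drawn with matplotlib 3.10.9. Promoters, gene bodies and windows needed 5 CpG sites, were adjusted by Benjamini-Hochberg over all features, and pool reads, so that deeper sites weigh more. RefSeq GRCm38.p6 gave genes and places.

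Values are given for every member with a called promoter, gene body or frontal cortex site, for the 10 largest promoter differences, and, of called windows and of CpGs called on both strands, for the 6 widest falls and the 6 widest rises, or all where there were fewer. The members and the gene lists (Hox cofactors and regulators, other homeobox and paired-box genes, and cell type markers) were chosen with earlier results of these data known. The printed stretches were chosen after their values were seen. Some stretches, and 1 CpG within them, are not reported here. Alternatives were other minimums of reads, sites and points, adjusted p-values, summed strands, thinned reads, means over sites, and other promoter and window sizes. Halved even counts and 10 points on each strand were added after the data had been seen.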

Additional observations from a re-analysis of the deposited data

Results flagged for a closer look

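At 6 CpGs the E3 minus CT difference in the hippocampus had the other sign than in the frontal cortex, where each of the 6 was listed as called. In the hippocampus the difference was 14.6 points at the Hoxa2 exon site, 16 points at the Hoxa3 intron site, 4.16 points at the Hoxb9 exon site, 9.09 points at the Hoxd10 promoter site and 14.9 points at the Hoxd3 exon site, and all 5 were lower in E3 in the frontal cortex. None of these 5 was called in the hippocampus. CT had 0 methylated reads of 19 at the Hoxa2 site, of 9 at the Hoxa3 site and of 6 at the Hoxd10 site, which allows levels of up to 15.8, 33.3 and 50.0%. At the Hoxb5 exon site the hippocampal difference was -24.1 points and was called, while the site was higher in E3 in the frontal cortex. With 1 library per tissue and group and no depth for the frontal cortex, the difference between the tissues was not tested.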

How the results depend on the processing

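Of 54 values of named promoters and gene bodies under an alternative, 40 stayed on the same side of the threshold and 14 were no longer called. In 21 of them only the rule changed and the difference could not, and of the 33 with a difference computed anew 0 changed sign. Hoxa11 had too few gene body sites with at least 10 reads. The count of called Hox sites was 129 (36 higher, 93 lower) with at least 20 reads, 146 (7 higher, 139 lower) with adjusted p-values and 67 (5 higher, 62 lower) with thinned reads, against 429. With 25 points, 0 promoters, 0 gene bodies, 2 windows (both lower) and 5 frontal cortex sites (1 higher, 4 lower) were left. With at least 10 CpG sites 13 windows of 170 were called, all lower (7.65%, against 7.57% lower and 7.69% higher of all such windows). The other alternatives gave 302 to 429 sites, 4 to 7 promoters, 2 to 4 gene bodies and 16 to 25 windows. As a mean over sites HoxB differed by -1.26 and HoxC by -2.46 points, against -0.521 and -3.24. With at least 10 reads HoxD differed by -0.0324, the 4 clusters by -0.905 and CHH sites by -0.0154 points, against -0.969, -1.15 and -0.260. The cause of these shifts was not tested. The frontal cortex calls were not recomputed with the deposited adjusted p-values, an alternative that was not run. No paired analysis was possible because each group has 1 library. Depth in CT, a median of 10 reads per Hox site, limits single sites.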

Other observations

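Not all of the HoxB region was low in methylation. Between Hoxb13 and Hoxb9, some windows with at least 5 sites were high. These were at 91.0% in E3 and 88.9% in CT (chr11:96227001-96228000), 86.3% and 82.2% (chr11:96231001-96232000), and 86.4% and 88.9% (chr11:96239001-96240000). Another, chr11:96218001-96219000, was at 45.7% in E3 and 47.2% in CT. Other windows there were low, such as chr11:96240001-96241000 at 5.05% in E3 and 2.88% in CT, and chr11:96251001-96252000 at 3.77% and 0.758%. In HoxA, a window in the Hoxa9 exon, chr6:52223001-52224000, was at 59.1% in E3 and 48.0% in CT. None of the windows named here was called.

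Outside CpGs, 2 listed frontal cortex CHH sites named a member. The Hoxc5 exon site at chr15 position 103016002 was at 45.5% in E3 and 0% in CT, and the Hoxd3 intron site at chr2 position 74740287 at 0% in E3 and 16.7% in CT. By position alone, 22 listed frontal cortex CpG sites lay in the 4 cluster windows, 19 of them lower in E3.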
